A study of Mus musculus with 2 samples.

Results

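Malat1, Neat1, Meg3 and Kcnq1ot1 are long noncoding RNAs that stay in the cell nucleus, and their levels were followed across the cells of the mouse leptomeninges. They were taken as the rows whose gene symbol is 1 of these names, which gave 4 of 32287 features in each of 2 single-cell RNA libraries, R1 and R2. The leptomeninges, the thin inner membranes of the brain, had been peeled off the cerebral hemispheres of 3-month-old Pdgfra-H2BGFP mice, both males and females, and digested to single cells for the Chromium droplet system. In these mice a nuclear green fluorescent protein is placed under control of Pdgfra, a fibroblast gene. The libraries form 1 group with no treatment or second genotype, and the labels do not say whether they came from separate animals. The members were chosen by measured values of these libraries: the share of UMIs (unique molecular identifiers, 1 per captured transcript) that Malat1 takes by cell class, and the lead of Meg3 in 1 cluster. Their levels across classes are therefore given as a description, with no test.

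Malat1 gathers in nuclear speckles, the bodies where splicing factors are stored, and it is abundant in most nucleated cells. Neat1 is the scaffold of paraspeckles, nuclear bodies built around its long transcript together with RNA-binding proteins. Kcnq1ot1 and Meg3 are imprinted, so that 1 parental copy is read: Kcnq1ot1 is transcribed from the paternal copy and silences neighbouring genes of the Kcnq1 domain, and Meg3 comes from the maternal copy of the Dlk1-Dio3 domain and is known for high levels in neurons. Mitochondrial RNA, by contrast, lies in the cytoplasm, and its share is a common measure of barcode quality.

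In the mm10 genome (GENCODE M21 annotation) Malat1 (ENSMUSG00000092341) lies on the minus strand at chr19:5795690-5802672, and Neat1 (ENSMUSG00000092274) lies on the same strand at chr19:5824708-5845478, 22035 bases away. Meg3 (ENSMUSG00000021268) lies on the plus strand at chr12:109541001-109571726. Kcnq1ot1 (ENSMUSG00000101609) lies on the minus strand at chr7:143203458-143296549, and all of its 93092 bases fall inside the protein-coding gene Kcnq1, which runs on the plus strand and shares 2 exon records with it. Whether the counting used strand is not given in the sources used here, so reads of the 2 strands there cannot be told apart by position. Kcnq1ot1 held 2830 UMIs in R1 and 1496 in R2, against 14 and 16 of Kcnq1. Of the other genes that overlap the members, 0 are among the counted features.

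Droplet libraries are primed from runs of A, which an RNA carries in its tail or within its body, so stretches where members offer such a run, or end, are shown here. Malat1 has no ordinary tail: its mature end is the A-rich tract shown, downstream of which a tRNA-like small RNA is cut off. Malat1-201, of 6983 bases, holds 1 run of at least 8 A, within the stretch shown, chr19:5795964-5796023. Neat1-201, the long form of 20771 bases, holds 0 such runs, and its last bases are at chr19:5824708-5824767. The short form, Neat1-202, ends at chr19:5842307-5842366 with the polyadenylation signal AATAAA. Meg3-209, the longest Meg3 transcript at 14548 bases, holds 7 runs of at least 8 A. Kcnq1ot1-201, an unspliced transcript of 93092 bases, holds 30, the longest of 41 A within the stretch chr7:143226921-143227009. Its last bases, at chr7:143203458-143203517, hold AATAAA. The sequences were read from the GENCODE M21 transcripts, 5′ to 3′ on the transcript strand, and capitals mark the longest A run, the A-rich end of the long Neat1 form, or AATAAA:
Malat1-201, A-rich tract: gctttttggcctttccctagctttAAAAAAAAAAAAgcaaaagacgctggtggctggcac
Neat1-201, 3′ end of the long form: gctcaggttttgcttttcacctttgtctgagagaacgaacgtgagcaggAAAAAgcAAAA
Neat1-202, 3′ end of the short form: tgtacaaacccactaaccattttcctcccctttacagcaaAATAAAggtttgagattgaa
Kcnq1ot1-201, longest A run: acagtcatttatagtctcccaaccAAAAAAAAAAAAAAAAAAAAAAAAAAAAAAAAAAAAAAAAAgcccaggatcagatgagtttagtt
Kcnq1ot1-201, 3′ end: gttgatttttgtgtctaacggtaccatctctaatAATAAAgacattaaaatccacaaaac
Of the members' 20 annotated transcripts 3 hold a run of at least 8 A on their own strand, against 13.8% of all 141515 annotated transcripts of at least 60 bases. AATAAA is in the last 60 bases of 9 of the 20, against 27.2% of all. The kit chemistry is not given in the labels, so a level per transcript length cannot be had from these counts, and levels are compared below between classes and not between members.

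R1 held 7276 barcodes with 14586462 UMIs and R2 held 6743 with 12359040, at a median of 1172.5 and 1024 UMIs. Limits of 400 genes or more and of no more than 10% mitochondrial UMIs kept 2988 barcodes in R1 and 3038 in R2. The kept barcodes formed 22 clusters, which markers sorted into 17 named classes and numbered clusters. The fibroblast classes of the membranes were present, and so were vascular, immune and blood cells and a neuron-like class. The names of 2 clusters, C12 (endothelial-like) and C15 (inner arachnoid fibroblast-like), had 0 own markers among their 10 leading genes, and in cluster C02 (inner arachnoid fibroblast-like) the erythroid markers scored above its own (1.11 against 0.73 on the log2 scale). The libraries share 93 barcode sequences, 74 of them among the kept barcodes, and the class levels and the 3 fitted comparisons were also computed without these.

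Malat1 took 224448 of the kept UMIs in R1 and 183273 in R2. Its level was highest in dural border-like cells by the mean of the libraries. Dural border-like cells, fibroblasts where the arachnoid meets the dura, held 73708 CPM (UMIs of the gene scaled to a common class total) in R1 and 86021 in R2, a mean of 79864 ± 8707 (SD, n = 2). The unnamed fibroblast-like cluster C14 held 68969 and 82534 CPM, the unnamed cluster C08 62748 and 78036, and mural-like cells (pericytes and smooth muscle) 70607 and 66882. Dural border-like cells were above mural-like cells in all 4 values, and the other pairs among these leading classes overlapped in their ranges over the libraries. Within each library alone, dural border-like cells were above cluster C14, and C14 above cluster C08. Arachnoid barrier-like cells, which seal the membrane with tight junctions, held 47252 and 65793 CPM, pial and perivascular fibroblast-like cells 48767 and 57967, and endothelial-like cells 31658 and 38844.

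Malat1 was lower in the remaining classes, lowest of all in neuron-like and erythroid-like barcodes. Inner arachnoid fibroblast-like cells held 25067 CPM of Malat1 in R1 and 15786 in R2, microglia-like cells 18471 and 21230, border macrophage-like cells 17864 and 19538, T or NK-like cells 18875 and 18132, and the fibroblast-like cluster C01 19071 and 12895. Plasma-like cells and cluster C19 held 11509 to 16881 CPM, and neutrophil-like cells 5261 and 7563. The neuron-like class, with 3511 and 4693 CPM, and the erythroid-like class, with 2353 and 2955, were last. The neuron-like class is cluster C04, where neuron markers scored 4.02 and oligodendrocyte markers 3.05, with Nrgn, Ddn and Camk2a among its leading genes. Whether its barcodes hold whole cells with a nucleus was not tested, so its level is not one of intact neurons. In R2 a single barcode held 680 of the 913 neuron-like Malat1 UMIs, and without it the neuron-like level was 1326 CPM. A single barcode also held 404 of the 1025 erythroid-like ones in R2, and without it that level was 1819 CPM. In R1 the levels without the top barcode of each class were 2843 CPM (neuron-like) and 1935 CPM (erythroid-like). The order of these last 2 classes in R2 therefore rests on single barcodes. The highest class mean was 30.1 times the lowest. In 6 of the 16 neighbouring pairs in the order, both values of the higher class were above both values of the lower one. With each barcode thinned to 500 UMIs, a Malat1 UMI was seen in 98.3% and 98.5% of dural border-like barcodes and in 28.4% and 21.4% of erythroid-like ones, whose mature cells have no nucleus. The erythroid-like barcodes were the deeper ones, with medians of 9578 and 9076 UMIs against 2149 and 2157.5.

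**Figure D1:**
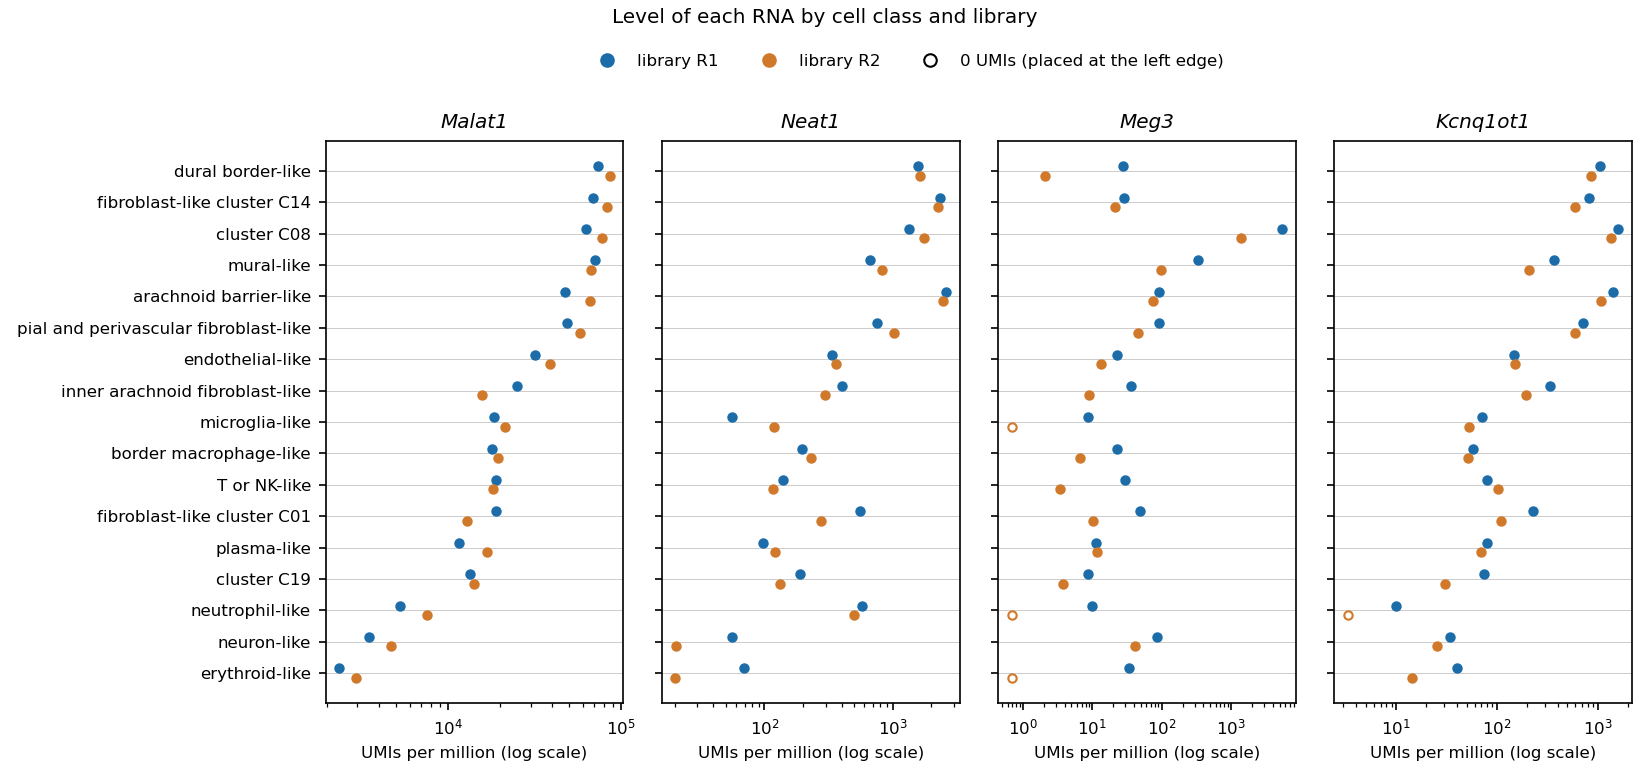
CPM of the 4 members (log axes, 1 panel each) in 17 cell classes and numbered clusters. Points are the 2 libraries, R1 and R2; Malat1 runs between 2353 and 86021 CPM, and Meg3 stands far above its other values in cluster C08 alone.

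Neat1 was highest in arachnoid barrier-like cells, at 2613 CPM in R1 and 2485 in R2 (mean 2549 ± 90.6, SD, n = 2). Cluster C14 followed with 2331 and 2282 CPM, and dural border-like cells with 1586 and 1629. The ranges of these 3 levels over the libraries were separate. For Malat1 those of cluster C14 and dural border-like cells overlapped, and arachnoid barrier-like cells were below both. Cluster C08 held 1344 and 1768 CPM of Neat1, pial cells 757 and 1018, mural-like cells 662 and 821, and neutrophil-like cells 578 and 502. The remaining values lay between 553 CPM in cluster C01 of R1 and 20.2 CPM in erythroid-like cells of R2, and neuron-like cells were last by their mean, with 55.6 and 20.6 CPM. Endothelial-like and border macrophage-like cells, with 339 and 365 against 198 and 232 CPM, were separate, but most of the lower classes overlapped.

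Set against Malat1 UMIs of the same barcodes, the Neat1 order changed. Neutrophil-like cells held 10.98 and 6.64 Neat1 UMIs per 100 Malat1 UMIs, on 58 and 28 Neat1 UMIs, and arachnoid barrier-like cells held 5.53 and 3.78. Microglia-like cells held 0.302 and 0.556, the lowest value in R1. So neutrophil-like cells, low in Malat1, stood high in Neat1 relative to it, while microglia-like cells stood low in R1. The neutrophil-like class held only 10 barcodes in each library, of which 4 held 77.6% and 85.7% of its Neat1 UMIs.

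Kcnq1ot1 was highest in cluster C08, at 1611 CPM in R1 and 1357 in R2, and in arachnoid barrier-like cells, at 1430 and 1093. The level was 1046 and 853 CPM in dural border-like cells, 830 and 592 in cluster C14 and 710 and 596 in pial cells. These values were all above those of endothelial-like cells, with 148 and 153 CPM, and of border macrophage-like cells, with 57.4 and 51.8 CPM. The fibroblast-like cluster C01 held 228 CPM in R1 and 111 in R2, below endothelial-like cells in R2. These classes differ in Malat1: 17.2% and 11.2% of C01 barcodes reached 1% Malat1 UMIs, against 87.3% and 81.4% of endothelial-like ones. Among those barcodes C01 held 726 and 693 CPM of Kcnq1ot1 over non-mitochondrial UMIs, against 167 and 180 in endothelial-like cells. The class levels of Neat1 and Kcnq1ot1 thus mix barcodes rich and poor in Malat1. Mural-like cells, near the top for Malat1, held 368 and 209 CPM of Kcnq1ot1. Neutrophil-like cells were last, with 1 UMI in R1 and 0 in R2, where a count of 0 allows up to 53.8 CPM. R2 was lower than R1 in 15 of the 17 classes and clusters. Per 100 Malat1 UMIs, arachnoid barrier-like cells held 3.03 and 1.66 Kcnq1ot1 UMIs and border macrophage-like cells 0.321 and 0.265.

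Meg3 was unlike the other members. Cluster C08 held 5473 CPM in R1 and 1370 in R2, far above mural-like cells with 331 and 96.6 CPM, arachnoid barrier-like cells with 92.2 and 74.9, and pial cells with 91.0 and 45.3. Neuron-like cells held 85.5 and 41.1 CPM, and the classes below them 0 to 48.3 CPM. R2 was lower in 16 of 17 classes and clusters, 3 of which had 0 Meg3 UMIs there, and the kept barcodes held 803 and 274 Meg3 UMIs in all. Outside cluster C08 the levels thus rest on few UMIs, such as 27 and 6 in mural-like cells.

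The Meg3 UMIs of cluster C08 were held by few barcodes. In R1, 33 barcodes held 513 Meg3 UMIs, and in R2, 53 barcodes held 203, of which a single barcode held 120, or 59.1%. Meg3 was at 0 in 12 of 33 and 42 of 53 of these barcodes. In a split made after the values were seen, 15 barcodes in R1 and 5 in R2 had at least 10 Meg3 UMIs and together held 494 and 192 of them. Their summed neuron markers stood at 2404 and 2222 CPM, against 521 and 163 CPM in the other barcodes of the cluster. The Meg3-high barcodes were also the deeper ones, with medians of 2007 and 4829 UMIs against 1154 and 1449. Astrocyte markers stood at 2856 and 4444 CPM in the Meg3-high barcodes and at 4634 and 4579 CPM in the others. Cluster C08 carried no class name: its highest score, 2.505 for astrocytes, exceeded the next, 2.048 for pial and perivascular fibroblasts, by less than the 0.75 that a name required. The part of neuron-derived RNA in its Meg3 level was not tested.

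The likeness of the members' patterns was described by Pearson's r of log2(CPM + 1) over the 10 classes and clusters with at least 50 barcodes in each library, which share library and depth, among 5198 genes. Among the genes nearest to Malat1 were Rbm5, a splicing regulator (r = 0.982 in R1 and 0.982 in R2), and Cspp1, a centrosome and spindle protein (0.978 and 0.987). Nearest to Kcnq1ot1 were Firre, another long noncoding RNA kept in the nucleus (0.980 and 0.985), the RNA-binding protein gene Tia1 (0.968 and 0.984) and the RNA helicase gene Ddx17 (0.964 and 0.960). Those nearest to Neat1 were Pbx3, a homeobox transcription factor (0.956 and 0.954), the lysosomal membrane gene Sidt2 (0.9496 and 0.9483) and the corepressor gene Rcor3 (0.970 and 0.944). For Meg3 the measure rests on few UMIs, 228 in R1 and 57 in R2, since cluster C08 was too small to enter. It was nearest to Aldh1a1, a retinoic acid-making enzyme (0.922 and 0.803), to the calcium channel gene Itpr1 (0.835 and 0.802) and to Ssbp3 (0.831 and 0.797). Among the members, Neat1 and Kcnq1ot1 had r = 0.926 and 0.924, Malat1 and Neat1 0.860 and 0.940, and Malat1 and Kcnq1ot1 0.891 and 0.874. The r of Meg3 with the other members lay between -0.08 and 0.27.

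Within a class, barcodes fell into Malat1-rich and Malat1-poor kinds. Border macrophage-like cells joined cluster C03, where the median barcode gave 2.66% of its UMIs to Malat1 in R1 and 3.37% in R2, and cluster C06, where it gave 0.0643% and 0.0619%. At least 1% Malat1 was reached by 90.6% and 91.8% of the C03 barcodes and by 6.27% and 5.45% of those of C06. The same split ran through inner arachnoid fibroblast-like cells, where 95.9% and 94.7% of cluster C15 and 7.04% and 5.84% of cluster C02 reached 1%. It ran also through microglia-like cells, with 97.6% and 95.2% of cluster C10 and 2.94% and 1.85% of cluster C09. In dural border-like cells 98.1% and 96.6% of barcodes reached 1%, in endothelial-like cells 87.3% and 81.4%, and in neuron-like cells 7.66% and 6.25%. Few border macrophage-like barcodes lay near the limit, 6.88% and 5.60% between 0.5% and 2%, while in T or NK-like cells 47.1% and 53.8% did.

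**Figure D2:**
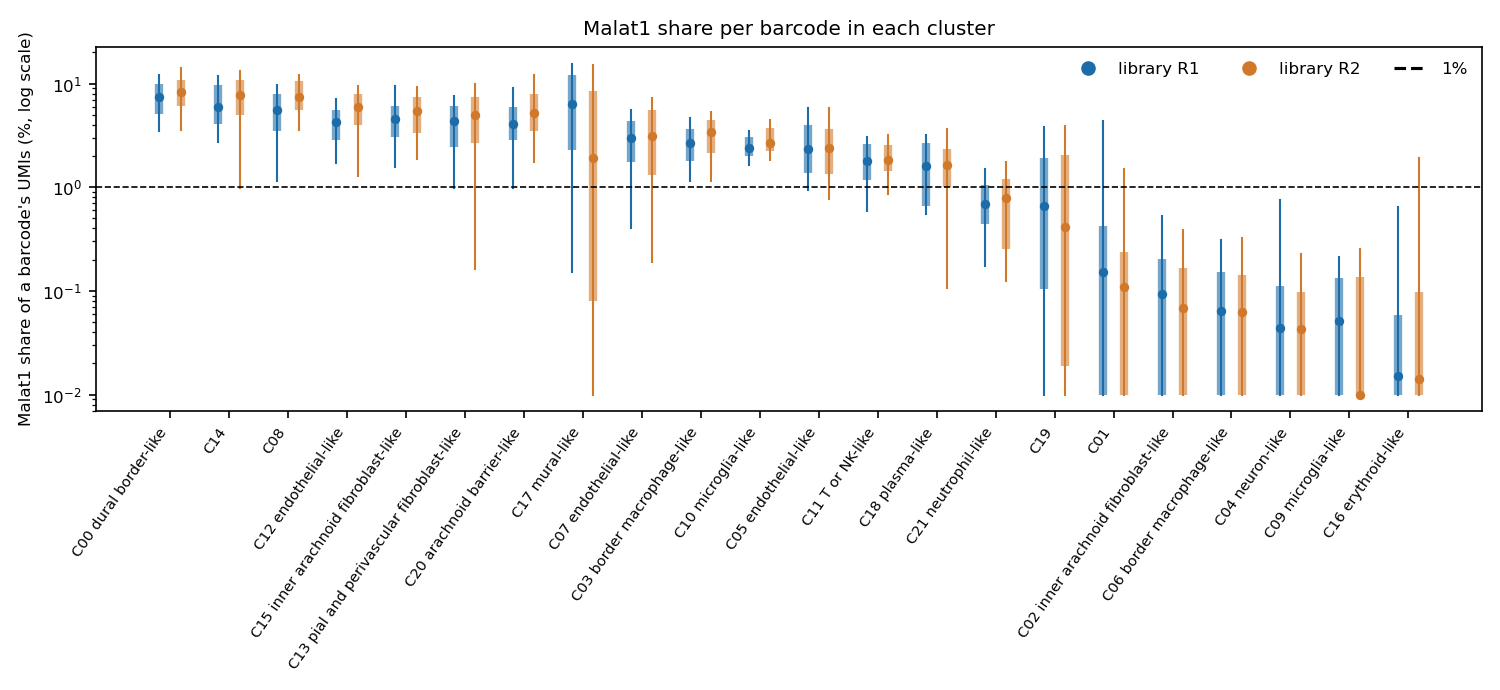
Share of each barcode's UMIs that are Malat1 (percent, log axis) in the 22 clusters, with R1 left of R2. Dots are medians, thick and thin bars run over the 25th to 75th and the 10th to 90th percentiles, values under 0.01% are drawn at 0.01%, and the dashed line marks 1%. Clusters of the same class stand on both sides of the line, as border macrophage-like C03 (medians 2.66% and 3.37%) and C06 (0.0643% and 0.0619%).

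Barcodes with at least 1% Malat1 were compared with those under 1% within the 5 classes that held enough of both, over UMIs that were neither Malat1 nor mitochondrial. Neat1 and Kcnq1ot1 were higher in the Malat1-rich barcodes of every class in both libraries, and Meg3 was not. Summed over the classes, Neat1 stood at 412 CPM in rich and 56.7 CPM in poor barcodes of R1, a ratio of 7.28 (95% interval 5.65 to 9.51, counting error only, as for all intervals here). In R2 it stood at 509 and 52.0 CPM, a ratio of 9.79 (7.87 to 12.3). By class, Neat1 lay between 77.4 and 1734 CPM in rich and between 6.90 and 124 CPM in poor barcodes, and it was higher in 10 of 10 pairs of tiers. The fitted log2 fold change was 3.26 ± 0.15 (adjusted p = 1.26e-63, edgeR's quasi-likelihood test with Benjamini-Hochberg adjustment, as for every adjusted p below).

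Kcnq1ot1 was close to missing from the Malat1-poor barcodes. In R1, 467 UMIs were counted in rich and 11 in poor barcodes, which is 214 against 9.59 CPM and a ratio of 22.3 (12.4 to 45.1). In R2 the counts were 399 and 6 UMIs, or 223 against 3.51 CPM, a ratio of 63.5 (28.9 to 174). The tiers did not overlap: rich barcodes held 75.7 to 773 CPM by class and library and poor barcodes 0 to 15.1 CPM. The fitted log2 fold change was 5.92 ± 0.27 (adjusted p = 3.61e-61), and since 4 poor groups had 0 UMIs its size depends on the prior count. Against a floor of 3 counts in those groups, the level in rich barcodes was at least 2.87-fold higher in endothelial-like cells of R1, at least 4.06-fold in those of R2, at least 110-fold in cluster C01 of R2 and at least 1.63-fold in microglia-like cells of R2.

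Meg3 was lower in Malat1-rich barcodes, with 15.6 against 48.0 CPM in R1, a ratio of 0.325 (0.206 to 0.508), and 7.26 against 10.5 CPM in R2, a ratio of 0.690 (0.311 to 1.49). The fitted change was -1.45 ± 0.42 (adjusted p = 0.00318), lower in 8 of 10 pairs of tiers, and the R2 interval spans equality. Over all genes 36.5% passed in this comparison, 1510 higher and 1380 lower of 7914, or 1971 and 1024 without TMM scaling. Leaving out TMM moved the median of all genes by 0.15, from which Neat1 stood apart by 3.22 in both fits, Kcnq1ot1 by 5.88 with and 5.94 without it, and Meg3 by -1.49 and -1.48. In each of the 5 classes alone Neat1 and Kcnq1ot1 passed, beside 32.9% of all genes in border macrophage-like cells, 27.4% in inner arachnoid cells, 15% in cluster C01, 12.7% in microglia-like cells and 2.96% in endothelial-like cells. Meg3 passed alone in border macrophage-like cells (adjusted p = 0.00397).

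**Figure D3:**
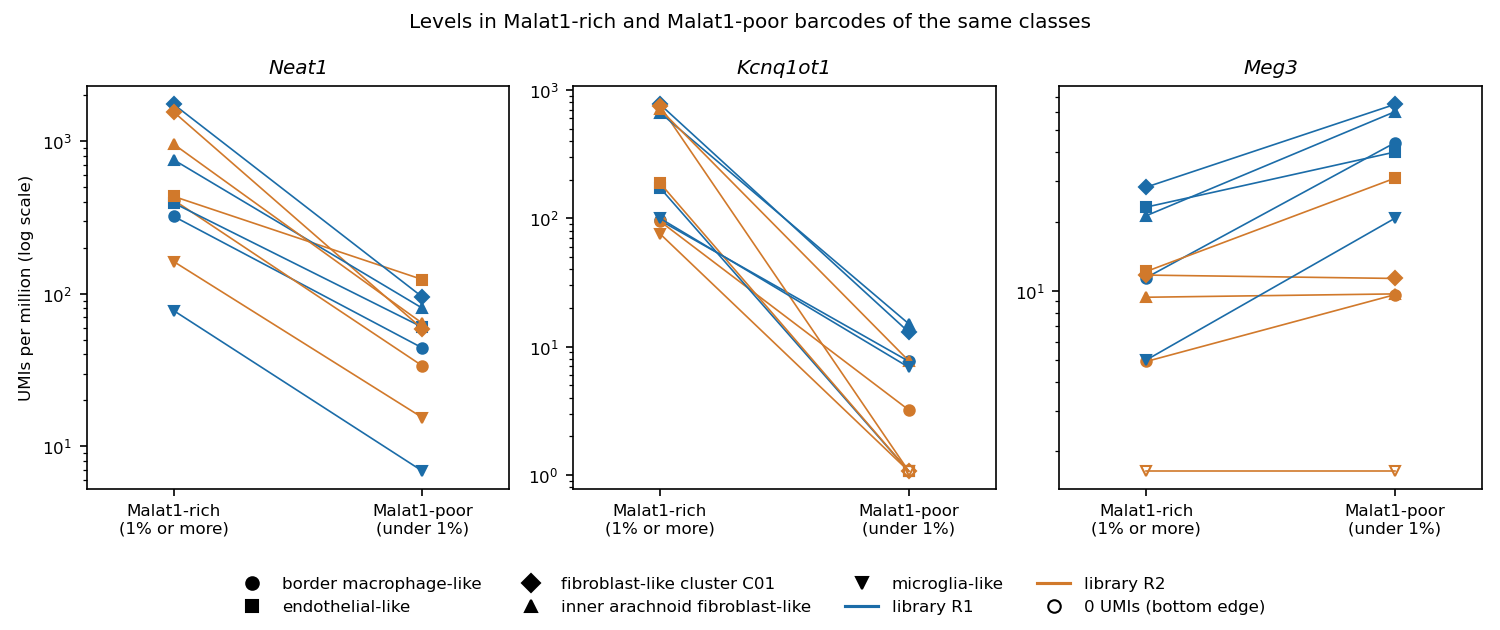
Neat1, Kcnq1ot1 and Meg3 in Malat1-rich (left) and Malat1-poor (right) barcodes of 5 classes, as CPM of UMIs that are neither mitochondrial nor Malat1, with lines joining the tiers of a class in a library. Log axes; open symbols at the bottom edge stand for 0 UMIs. Kcnq1ot1 is at 75.7 to 773 CPM in rich and at 0 to 15.1 CPM in poor barcodes.

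The tiers differed in more than nuclear RNA. Malat1-rich barcodes had medians of 2596.5 UMIs in R1 and 2253 in R2, against 958 and 910 in poor ones, and 4.19% and 3.31% mitochondrial UMIs against 7.03% and 7.06%. With barcodes of 1000 to 2000 UMIs alone, a setting chosen after the data were seen which left 4 classes, the change was 3.99 for Neat1 and 7.52 for Kcnq1ot1. Rich barcodes were somewhat deeper within that range as well, with medians of 1456 against 1303 UMIs in R1 and 1440 against 1354 in R2. In poor barcodes the classes' own markers were present, with 0 of them at 0. The clusters were named by these markers, so their presence follows from the naming and tests nothing. The 8 border macrophage markers summed to 12844 and 14981 CPM in rich and 10012 and 10485 CPM in poor barcodes, and the 7 microglia markers to 18347 and 19499 against 11946 and 14030 CPM. Endothelial and inner arachnoid markers were also higher in rich barcodes. The fibroblast markers of cluster C01 went the other way, with 2662 and 2928 CPM in rich and 3306 and 3136 CPM in poor barcodes. Erythroid markers moved with the tiers too. In microglia-like cells they summed to 834 CPM in rich and 112643 CPM in poor barcodes of R1, with 1 and 0 of the 5 markers at 0, and to 966 and 3790 CPM in R2. In border macrophage-like cells the sums were 776 against 3181 CPM in R1 and 860 against 5015 in R2, and in inner arachnoid cells 1485 against 17112 and 4668 against 5339. Endothelial-like cells of R1 went the other way, with 7203 CPM in rich and 2351 CPM in poor barcodes. Neuron markers were higher in poor barcodes of every class and library except cluster C01 of R1. There they summed to 785 CPM in rich and 533 CPM in poor barcodes. In border macrophage-like cells the neuron sums were 141 against 357 CPM in R1 and 56.8 against 179 in R2. Of the neuron markers, 2 and 0 were at 0 there in R1, and 1 and 2 in R2. The parts of erythroid and neuron RNA in these results, Meg3 among them, were not tested.

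Genes of the nuclear bodies in which Malat1 and Neat1 reside were also higher in Malat1-rich barcodes. Of 12 nuclear speckle and splicing-factor genes 11 were higher and 0 lower, where 19.1% and 17.4% of all genes were, with a median log2 change of 1.46 against 0.04 over all genes. Luc7l2, a splicing factor of the U1 particle, was higher by 2.20 ± 0.11 (515 against 115 CPM) and the splicing factor Srsf7 by 1.87 ± 0.14 (289 against 79.5 CPM). Of the 8 tested paraspeckle protein genes (of 9), 5 were higher and 1 lower, with a median of 0.85. Tardbp, an RNA-binding protein, was higher by 1.10 ± 0.16, while Hnrnpk was the lower one, at -0.43.

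Of 9 tested long noncoding RNAs (of 19 listed) 7 were higher and 0 lower, with a median of 0.89. The low-count filter can keep a gene through its Malat1-rich groups alone, so the tested set may lean towards genes that are higher there. No weight is therefore put on this count. Firre stood at 90.3 CPM in rich and 2.54 CPM in poor barcodes, a log2 change of 5.16 ± 0.50, and Mir99ahg at 209 and 8.88 CPM, a change of 4.88 ± 0.29. Cytosolic ribosomal protein genes went the other way, with 0 higher and 21 lower of 21 and a median of -0.88, among them Rps24 at 1849 against 3626 CPM (-1.03 ± 0.08) and Rps4x at -0.99 ± 0.09. The ribosomal protein messages thus differed between the tiers in the direction opposite to Neat1, Kcnq1ot1, Firre and Mir99ahg. Of 5 tested genome neighbours of Malat1 and Neat1, 0 were higher and 1, the matrix gene Ltbp3, was lower, at -0.65 ± 0.24 (94.1 against 86.6 CPM as plain means), a call lost without TMM. Of 6 genes of the Kcnq1 domain 1 was higher, Tssc4 (0.82, adjusted p = 0.0406), and 0 were lower. These counts are near the 19.1% higher and 17.4% lower of all genes and say nothing particular of the neighbours.

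Mitochondrial share was compared next, barcodes with over 5% mitochondrial UMIs against those with at most 5%, in 6 classes and over non-mitochondrial UMIs. Malat1, Neat1 and Kcnq1ot1 were lower in the barcodes over 5%. In border macrophage-like cells Malat1 stood at 8161 CPM in R1 and 3167 in R2 over 5%, against 23038 and 26048 CPM at or under 5%. Of these barcodes, 92.4% and 97.3% of those over 5% came from cluster C06, against 52.8% and 60.7% of the others. In inner arachnoid fibroblast-like cells it stood at 19974 and 6942 CPM, against 37176 and 36424. There cluster C02 gave 83.7% and 95.1% of the barcodes over 5%, while at or under 5% cluster C15 led in R1 with 50.6% and C02 in R2 with 57.9%. In dural border-like cells, which are a single cluster, Malat1 stood at 68397 and 70895, against 86169 and 103092. Malat1 was lower over 5% in 11 of 12 pairs of tiers, the exception being endothelial-like cells of R1. The fitted log2 change was -1.15 ± 0.12 (adjusted p = 6.36e-13), in a comparison where 10.7% of 8775 genes passed, 699 higher and 238 lower.

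Neat1 changed by -0.79 ± 0.11 (adjusted p = 1.59e-08, lower in 9 of 12 pairs) and Kcnq1ot1 by -0.77 ± 0.14 (adjusted p = 1.05e-05, lower in 9 of 12). The libraries differed in size: in R1 alone the changes of Malat1, Neat1 and Kcnq1ot1 were -0.61, -0.36 and -0.11, and in R2 alone -1.76, -1.26 and -1.68. Summed over the classes of R1, Neat1 stood at 699 CPM over 5% against 653 CPM, and Kcnq1ot1 at 453 against 400, so the sums were higher where the mean of class changes was lower. Meg3 had a fitted change of 1.45 ± 0.46 (adjusted p = 0.0241, higher in 8 of 12 pairs) on 81 and 25 UMIs over 5% against 70 and 20. In cluster C01 alone the Meg3 value was 6.23 ± 2.23, with 0 Meg3 UMIs at or under 5% in both libraries, against a mean of 0.49 in the other classes. The size of the fitted change therefore depends on the prior count. It was 0.50 (adjusted p = 0.305) with at least 50 barcodes per class and tier, which left out 1 class, and with no library block its adjusted p was 0.0814.

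The size differed by class. In border macrophage-like cells alone Malat1 changed by -2.13 ± 0.30 (adjusted p = 2.42e-08), beside 11.4% of genes called there. In inner arachnoid cells it changed by -1.51 ± 0.29 (adjusted p = 2.71e-04), beside 4.13% of genes called, and in cluster C01 by -1.65 ± 0.29 (adjusted p = 2.98e-04), beside 0.239%. Dural border-like (-0.46), endothelial-like (-0.44) and pial cells (-0.68) did not pass, beside 0.0228%, 5.65% and 0.0912% of genes called.

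Depth and Malat1 share moved with mitochondrial share. Barcodes over 5% had medians of 1177 UMIs in R1 and 945 in R2, against 2130 and 1670, and Malat1 UMIs are part of the total on which the mitochondrial share is taken. With barcodes of 1000 to 2000 UMIs alone, which left 2 classes, the log2 value of Malat1 was -0.42 (adjusted p = 0.0720), that of Kcnq1ot1 -0.088 (adjusted p = 0.984) and that of Neat1 0.25 (adjusted p = 0.744). The libraries went opposite ways there, with Malat1 at 0.46 in R1 and -1.37 in R2, and Neat1 at 0.63 and -0.28. With barcodes of at least 1% Malat1 alone, which left 4 classes, the value was -0.36 for Malat1 (adjusted p = 0.137), -0.19 for Neat1 (adjusted p = 0.569), 0.056 for Kcnq1ot1 (adjusted p = 0.935) and 0.013 for Meg3 (adjusted p = 1). No member passed in either setting, both of which were chosen after the data were seen and hold fewer classes. Meg3 was not among the genes tested at 1000 to 2000 UMIs.

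Of the 12 speckle and splicing-factor genes 0 were higher and 9 lower over 5%, where 7.97% and 2.71% of all genes were, with a median of -0.45 against 0.08 over all genes. With numbered clusters in place of classes 4 were lower. Pnn, a speckle protein, stood at 157 against 244 CPM (-0.74 ± 0.12) and Srsf7 at 156 against 242 CPM (-0.64 ± 0.12). Of 13 tested long noncoding RNAs 2 were lower, Firre (-0.98 ± 0.20) and Mir99ahg (-0.64). Of 21 ribosomal protein genes 16 were higher and 0 lower, with Rplp1 at 0.48 ± 0.08 and Rpl4 at 0.58 ± 0.11. With numbered clusters 6 of these and 0 of the long noncoding RNAs passed, and without TMM 10 of the ribosomal protein genes. Of 6 neighbours of Malat1 and Neat1 1 was higher, Ltbp3 (0.60 ± 0.14), and of 6 genes of the Kcnq1 domain 0 passed in either direction. Among barcodes of at least 1% Malat1, 0 genes of each of these lists passed.

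Depth was compared between barcodes of at least 1500 UMIs and shallower ones in 8 classes. Malat1 was higher in the deeper barcodes, most of all in the myeloid classes. Border macrophage-like cells held 22282 CPM in R1 and 25801 in R2 when deep, against 2887 and 2627 when shallow, and microglia-like cells 22003 and 25449 against 837 and 3647. The tiers of these classes hold different clusters: deep border macrophage-like barcodes were 51.7% and 52.2% cluster C03 and shallow ones 98.9% and 99.8% cluster C06, and deep microglia-like barcodes were 78.8% and 78.4% cluster C10 and shallow ones 100% and 95.6% cluster C09. Dural border-like cells held 77381 and 91072 CPM when deep, against 79551 and 83423, with no common direction. The fitted change of Malat1 was 1.71 ± 0.12 (adjusted p = 2.00e-32, higher in 13 of 16 pairs of tiers), in a comparison where 7.83% of 8994 genes passed, 582 higher and 122 lower. Without TMM scaling the split was 173 and 354, and the median of all genes moved by -0.18, from 0.23 to 0.05. Relative to the median of all genes Malat1 stood at 1.47 with TMM and 1.45 without it.

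Kcnq1ot1 changed by 1.82 ± 0.25 (adjusted p = 2.55e-09, higher in 11 of 16 pairs), or 1.58 relative to the median of all genes. In shallow microglia-like barcodes its count was 0 in both libraries, so the size of this change depends on the prior count, and with numbered clusters in place of classes it was 0.82 (adjusted p = 0.0108). Neat1 changed by 0.93 ± 0.17 (adjusted p = 1.25e-05), or 0.69 relative to the median, but it was higher in 8 of 16 pairs and lower in 8, and with numbered clusters it was at 0.32 (adjusted p = 0.383). In border macrophage-like cells Neat1 stood at 242 and 304 CPM when deep, against 55.7 and 40.2, and in dural border-like cells at 1484 and 1627 when deep, against 2856 and 2203. The classes therefore went opposite ways. Meg3 was lower in deep barcodes, at -1.87 ± 0.31 (adjusted p = 1.09e-06, lower in 14 of 16 pairs), or -2.11 relative to the median.

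**Figure D4:**
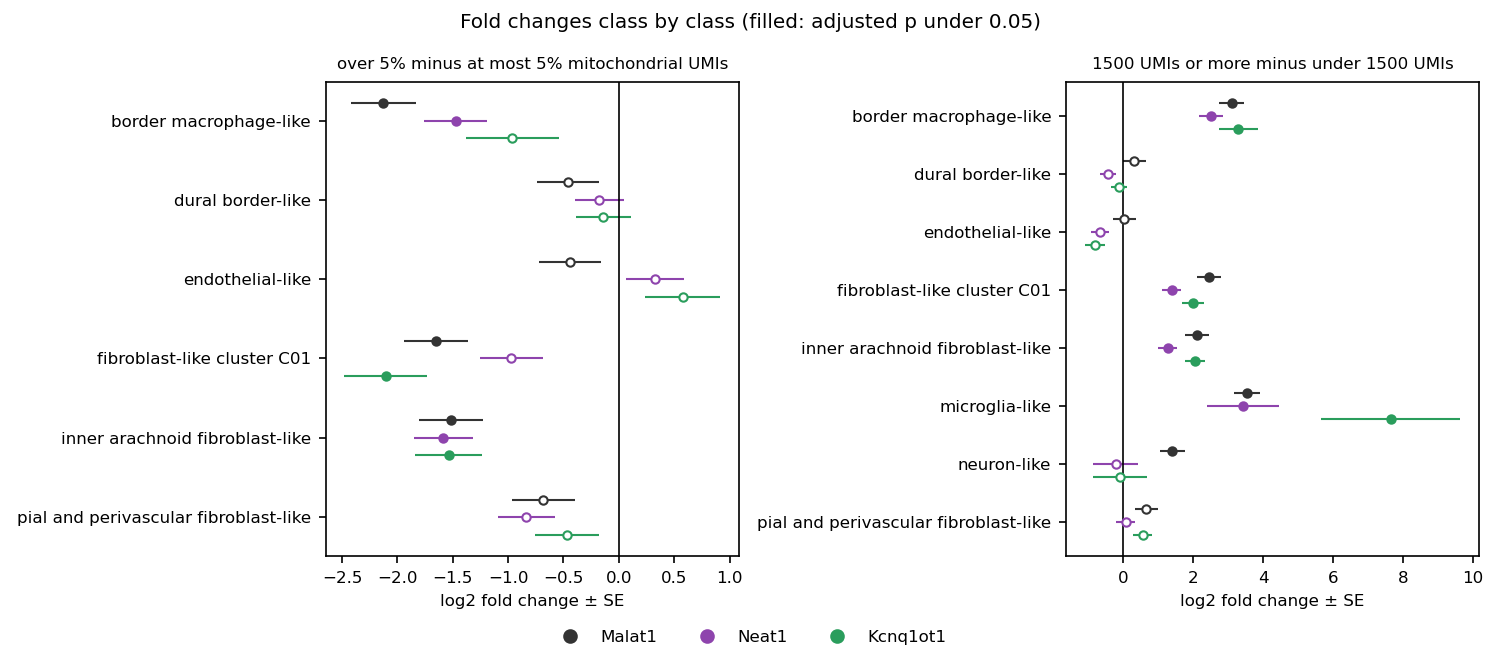
Fitted log2 fold changes of Malat1, Neat1 and Kcnq1ot1 in each class alone, with standard errors, for barcodes over 5% against at most 5% mitochondrial UMIs and for at least 1500 against fewer UMIs. Filled points passed at an adjusted p of 0.05; Malat1 in the depth comparison runs between 0.04 in endothelial-like and 3.53 in microglia-like cells.

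By class, Malat1, Neat1 and Kcnq1ot1 passed as higher in deep barcodes of border macrophage-like cells, inner arachnoid fibroblast-like cells, cluster C01 and microglia-like cells, beside 10.4%, 5.23%, 0.311% and 7.22% of genes called there in either direction. These are summed levels. In R2 the median share of Malat1 was lower in deep barcodes of cluster C01 (0.100% against 0.115%) and of inner arachnoid cells (0.0656% against 0.116%). In R1 it was higher in both, at 3.79% against 0.128% and 3.11% against 0.110%. In neuron-like cells Malat1 alone of these 3 members passed (1.41 ± 0.35, adjusted p = 0.00905), beside 3.01% of genes, but this call rests on few barcodes. A single deep barcode held 680 of the 817 Malat1 UMIs of the deep neuron-like tier in R2, and without it the deep level was 996 CPM against 3636 CPM in shallow barcodes. The median barcode gave less of its UMIs to Malat1 when deep, 0.0407% and 0.0321%, against 0.0737% and 0.0950% when shallow. In dural border-like, endothelial-like and pial cells these 3 members did not pass, beside 3.14%, 2.06% and 0% of genes. With barcodes of at least 1% Malat1 alone, which left 3 classes, the value was 0.084 for Malat1 (adjusted p = 0.703) and -0.39 for Kcnq1ot1 (adjusted p = 0.0620), while Neat1 was lower in deep barcodes, by -0.59 (adjusted p = 7.49e-04), as was Meg3, by -1.41 (adjusted p = 0.0234).

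Of the 12 speckle and splicing-factor genes 11 were higher and 0 lower in deep barcodes, where 6.47% and 1.36% of all genes were, with a median of 0.61 against 0.23 over all genes. With numbered clusters in place of classes 1 was higher, and among barcodes of at least 1% Malat1 0 were higher and 1 lower, with a median of -0.22. Srsf7 stood at 234 against 117 CPM (1.08 ± 0.14) and Luc7l2 at 437 against 359 CPM (0.88 ± 0.13). Of 13 tested long noncoding RNAs 2 were higher, Mir99ahg (1.76 ± 0.27) and Dleu2 (1.21 ± 0.41). Tardbp was higher by 0.51 ± 0.17. Of 6 genes of the Kcnq1 domain 1 was higher, Cd81 (0.60 ± 0.10), and of the Dlk1-Dio3 domain 1 gene of 5 was tested and did not pass. Of 21 ribosomal protein genes 0 were higher and 0 lower, with a median of -0.07. The ribosomal result also hung on the setting: 10 were lower without TMM, and among barcodes of at least 1% Malat1 18 were higher.

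Barcodes outside the limits on genes and mitochondrial share held little Malat1. Barcodes over 10% mitochondrial UMIs reached 1% Malat1 in 7.79% of cases in R1 and 3.58% in R2, against 52.7% and 39.9% of the kept barcodes. Across mitochondrial share the order was not steady. The share of barcodes with at least 1% Malat1 was 38.1% and 44.6% at 0 to 2.5% mitochondrial UMIs, 62.0% and 52.5% at 2.5 to 5%, 36.1% and 17.2% at 5 to 10%, 9.49% and 3.84% at 10 to 20%, and 2.07% and 1.70% from 20% on. The bin lowest in mitochondrial share was therefore below the next one in both libraries. Across depth, the share was 9.34% and 8.29% at 500 to 1000 UMIs, 28.0% and 20.5% at 1000 to 2000, 50.8% and 45.8% at 2000 to 5000, and 42.3% and 40.0% from 5000 on.

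Both measures together gave a wider range than either did alone, and the strata given here are examples from it. Barcodes of 2000 to 5000 UMIs with 2.5 to 5% mitochondrial UMIs reached 1% Malat1 in 79.5% and 75% of cases, and those of 500 to 1000 UMIs with 10 to 20% in 4.64% and 3.40%. In the same strata Kcnq1ot1 stood at 496 and 316 CPM, against 27.7 and 13.8 CPM. From 20% mitochondrial UMIs on, Malat1 stood at 1043 CPM in R1 and 1354 in R2, and Kcnq1ot1 at 12.7 and 23.3. Meg3 lay between 67.9 and 85.1 CPM in every mitochondrial bin of R1, and in R2 at 79.5 CPM at 2.5 to 5% and between 16.1 and 17.8 CPM in the other bins. Across single kept barcodes the Spearman correlation of Malat1's share of non-mitochondrial UMIs with mitochondrial share was -0.25 over 2988 barcodes of R1 and -0.43 over 3038 of R2, and with UMI depth 0.29 and 0.36. These barcodes share library and depth, and the values mix classes.

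**Figure D5:**
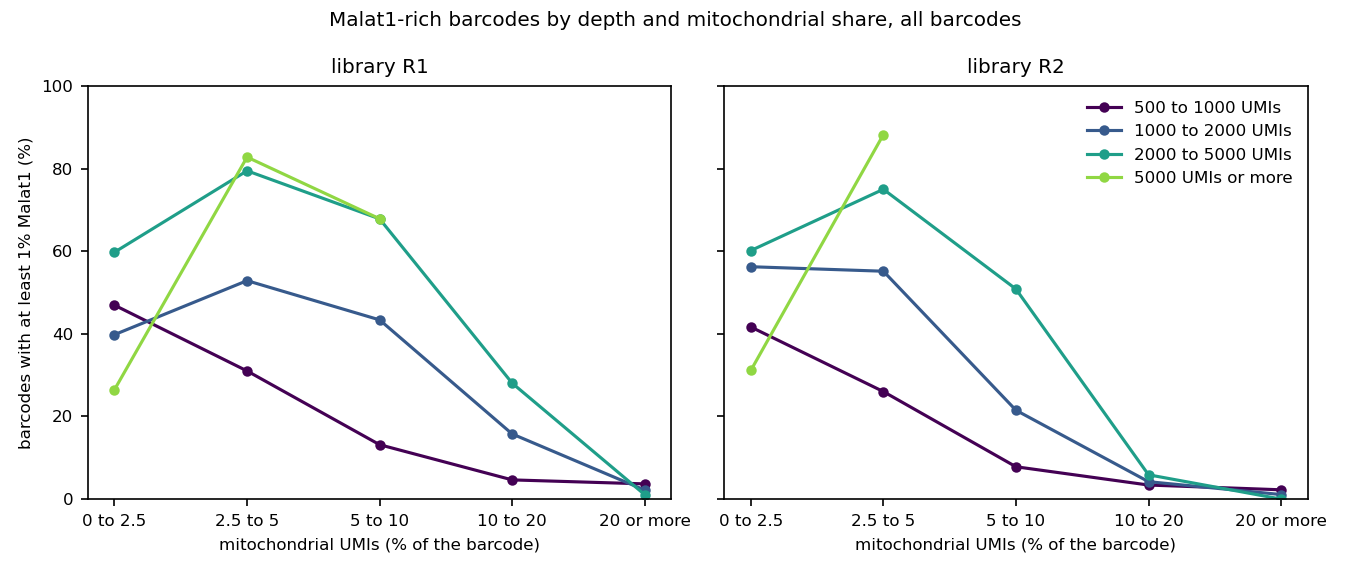
Percent of barcodes with at least 1% Malat1 UMIs by mitochondrial share, for all barcodes of R1 and R2, with 1 line per range of UMI depth. The line of 2000 to 5000 UMIs peaks at 2.5 to 5% mitochondrial UMIs, with 79.5% in R1 and 75% in R2, and all lines that reach 20% end near 0.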

How the data were processed

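The deposited matrices of the authors hold raw counts of UMIs per gene and barcode, which the file headers credit to Cell Ranger 4.0.0 and the submitters' processing notes to genome build mm10. The deposited gene and barcode lists (unit: other, per the file headers) carry names only. Barcodes under 400 genes or over 10% mitochondrial UMIs were dropped. The rest were clustered in scanpy 1.11.5 under python 3.11.15, by the Leiden method at a resolution of 1 on a graph of 15 neighbours, built from 30 principal components of 2000 variable genes, with the members and the mitochondrial, sex-linked and reporter genes left out. Clusters were named from fixed marker lists, with cutoffs set after the clusters were seen. No doublet caller was run, so doublets remain among the barcodes, and shared barcode sequences were kept in the main results.

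The members and gene lists were chosen with earlier results of these data known. Counts were summed per library, class and tier with at least 30 barcodes and fitted over all genes with edgeR 4.0.16 in R 4.3.3 (TMM, filterByExpr, quasi-likelihood, a term for each class and tier, library as a block), with Benjamini-Hochberg adjustment and a threshold of 0.05. Mitochondrial genes were left out of the sums, and so was Malat1 where it defines the tiers. The library block pairs tiers that come from the same library. The p-values measure only the spread left between class and tier groups of these 2 libraries after the block, which may be technical. The classes act as replicates there, so a p-value does not measure how far the 2 libraries differ in the size of a change. Standard errors are the absolute log2 fold change divided by the root of its F statistic, and single-library values come from logs with a prior count of 2. On simulated counts, 98%, 86.9% and 78.6% of genes changed 2-fold were recovered in the mitochondrial (7599 genes), depth (7255) and Malat1 (6479) comparisons, and 99%, 96% and 96.9% of those changed 3-fold. Of the genes called there, 2.48%, 5.21% and 4.47% were false. The simulation gave every class and library the same expression profile and the same changes, with a fixed dispersion, and changed no genes of low count. It therefore does not cover classes or libraries that differ, or counts near 0.

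Named genes were the members and, per list and comparison, up to 2 genes with the largest change that passed, moved the same way in both libraries and reached 50 CPM. Genes called in groups of 5 or fewer were named too, after their values were seen. For likeness, the 3 genes with the highest r were taken by the lower of the 2 libraries' values, among genes with at least 200 UMIs in each. Poisson and exact binomial 95% intervals are for counting error alone, and 3 counts is the upper limit set on a count of 0. Figures were drawn with matplotlib 3.10.9. Alternatives were DESeq2 1.42.0, no TMM, no low-count filter, no library block, clusters in place of classes, at least 50 barcodes per tier, other tier limits and single libraries, and, chosen after the data were seen, no shared barcodes, 1000 to 2000 UMIs alone and at least 1% Malat1 alone. A few items of the series are not reported here.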

Additional observations from a re-analysis of the deposited data

Results flagged for a closer look

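Each class was set against the mean of the other classes by a contrast in the edgeR fit (quasi-likelihood test, Benjamini-Hochberg adjustment over all genes). This was done for each of the 6 classes of the mitochondrial comparison and the 8 classes of the depth comparison. Only the pairs of member and class that passed are given, and the other pairs did not pass. The share of all genes that passed was not counted, so these calls say nothing particular of the members. The mitochondrial comparison comes first. In border macrophage-like cells the change of Malat1 was -2.13 against -0.95 in the other classes, a difference of -1.18 (adjusted p = 0.0156). In endothelial-like cells the change with mitochondrial share was 0.58 for Kcnq1ot1, against -1.04 in the other classes, a difference of 1.62 (adjusted p = 0.00150). For Neat1 it was 0.32 in endothelial-like cells against -1.01, a difference of 1.33 (adjusted p = 6.89e-04). Meg3 in pial and perivascular fibroblast-like cells was at -1.05 against 1.95, a difference of -3.00 (adjusted p = 0.0205), where the other classes include cluster C01 with 0 Meg3 UMIs in both of its tiers at or under 5%. That difference therefore depends on the prior count.

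In the depth comparison, Malat1 in border macrophage-like cells changed by 3.10 against 1.51 in the other classes, a difference of 1.60 (adjusted p = 0.00354), and in microglia-like cells by 3.53 against 1.44, a difference of 2.09 (adjusted p = 8.12e-05). It was at 0.33 in dural border-like cells against 1.90, a difference of -1.58 (adjusted p = 0.00148), and at 0.04 in endothelial-like cells against 1.94, a difference of -1.90 (adjusted p = 8.36e-05). In dural border-like cells the change of Kcnq1ot1 was -0.12 against 2.10, a difference of -2.22 (adjusted p = 4.70e-05), and that of Neat1 -0.43 against 1.12, a difference of -1.55 (adjusted p = 1.69e-04). In endothelial-like cells Kcnq1ot1 was at -0.80 against 2.19, a difference of -2.99 (adjusted p = 1.56e-07), and Neat1 at -0.65 against 1.15, a difference of -1.81 (adjusted p = 5.30e-05). The means of the other classes include microglia-like cells, whose shallow barcodes held 0 Kcnq1ot1 UMIs. No cause of these differences was tested.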

How the results depend on the processing

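Limits: there are 2 libraries of unknown animal origin, class names were rebuilt, doublets remain, and depth, mitochondrial share and Malat1 share move together, so they cannot be told apart in full. Meg3 rests on few UMIs.

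The class with the highest level was the same under all alternatives for all 4 members. At most 5% mitochondrial UMIs gave 91546 CPM (Malat1, dural border-like), 2709 (Neat1, arachnoid barrier-like) and 1769 (Kcnq1ot1, cluster C08); Neat1 was 2690 over non-mitochondrial UMIs and 2776 as a mean of barcodes. Mean shares of all barcodes with a UMI were 51.1%, 9.70%, 1.99% and 5.25% for Malat1, Neat1, Meg3 and Kcnq1ot1 at 500 UMIs, and 66.6%, 19.3%, 4.21% and 12.04% unthinned.

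By mitochondrial share, genes higher and lower were 271 and 45 with clusters, 42 and 27 at 1000 to 2000 UMIs and 47 and 11 at 1% Malat1; a 4% limit gave 420 lower. Malat1 was -0.42 at 1000 to 2000 UMIs and -0.36 at 1% Malat1, Neat1 0.25 and -0.19, and Kcnq1ot1 -0.088 and 0.056. The Meg3 call was lost with DESeq2 (1.03), no library block (1.55), clusters (1.31), 50 barcodes per tier (0.50) and 1% Malat1 (0.013).

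By depth, genes higher and lower were 194 and 259 with DESeq2, 173 and 354 without TMM, 46 and 7 with clusters, 304 and 190 at 1000 UMIs and 366 and 225 at 2000; no filter gave 60 lower and 50 barcodes per tier 360 higher. Neat1 was 0.32 with clusters (adjusted p = 0.383) and -0.59 at 1% Malat1, where Malat1 was 0.084 and Kcnq1ot1 -0.39. By Malat1 tier, genes higher and lower were 528 and 289 with clusters and 447 and 662 at 1000 to 2000 UMIs, and Meg3 was -0.64 with clusters (adjusted p = 0.669).

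At 1% Malat1 the depth values of Dleu2 (-0.82), Luc7l2 (-0.50), Mir99ahg (-0.79) and Tardbp (-0.64) reversed. At 1000 to 2000 UMIs Pnn (0.19) and Rpl4 (-0.35) reversed by mitochondrial share and Ltbp3 (0.19) by Malat1 tier. No cause was tested.

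Single libraries gave, by mitochondrial share, Malat1 -1.76 to -0.61, Neat1 -1.26 to -0.36, Kcnq1ot1 -1.68 to -0.11 and Meg3 0.66 to 0.83; by depth, Neat1 0.69 to 0.83, Meg3 -1.45 to -1.06 and Kcnq1ot1 0.87 to 1.47; and by Malat1 tier, Neat1 2.95 to 3.20, Meg3 -1.27 to -0.35 and Kcnq1ot1 4.10 to 4.86. Without the library as replicate block, genes higher and lower were 590 and 194 (mitochondrial share), 515 and 88 (depth) and 1485 and 1344 (Malat1 tier), and no other member call was lost. Without the shared barcodes no member call was lost.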
